A study of Mus musculus with 4 samples.

Results

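The regions described here are the strong transcription start clusters of genes that had at least 2 such clusters, well separated, in lesional facial skin of mice. Capped RNA ends were counted by cap analysis of gene expression (CAGE), which sequences a short tag from each RNA's 5′ cap. A cluster of tags is thus read as a place where transcription starts, and long and short transcripts give the same number of tags. A gene was taken when its clusters summed to at least 10 CPM (tags scaled to a common library total) as the mean of 4 libraries, and when at least 2 of its clusters each held at least 20% of that sum and lay at least 500 bp apart, edge to edge. This gave 678 genes of the 10756 named genes at 10 CPM or more (6.30%), with 1367 distinct clusters of the 67319 in the table. In 252 of these genes the downstream cluster may hold tags of the upstream start, as described below. Whether it is a promoter of its own was not tested. The genes were thus chosen by their mean CPM and by the mean shares of their clusters, so levels and shares are a description; the spread of a share between libraries was not used to choose them.

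The 4 libraries form 1 group: skin of C57BL/6 mice at post natal day 28 with the genotype Nectin-cre(+);Ikk2FL/FL;Postn-/-, labelled as lesional. Every library carried the floxed Ikk2 alleles (Ikk2, encoded by Ikbkb, is a kinase of the NF-kB pathway), the Cre driver and the loss of Postn, the gene of the matrix protein periostin. It is not stated which cells express the driver, what the 2 parts of the sample codes mean (a number shared by libraries 1 and 2 and another shared by libraries 3 and 4, and the letters L and R), or whether the libraries came from 4 animals. The spread between libraries may therefore be technical, p-values measure it alone, and there is no control group to set against these mice.

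Many mammalian genes can be transcribed from more than a single promoter. A promoter is the stretch of DNA where transcription begins, and a gene with alternative promoters joins different first exons to the same downstream exons. When the start codon lies in the first exon, promoter choice changes the N terminus of the protein; when it lies further downstream, the protein is the same and the 5′ untranslated leader differs. In muscle, nerve, pigment cells and epithelium such choices are classic examples of one gene that serves several cell types.

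The promoter sequences of 5 such genes show how unlike the starts of a single gene can be. They are the 100 bases before and the first 20 bases from the RefSeq start that lay nearest to each cluster (GRCm38.p6, within 13 bp of the cluster), 5′ to 3′ on the transcribed strand, with CG dinucleotides in capitals. Srebf1 encodes a transcription factor of lipid synthesis, Mitf the master transcription factor of pigment cells, Nfkb2 an NF-kB subunit, Cald1 the actin-binding protein caldesmon and Ak1 the adenylate kinase of muscle cytosol.
Srebf1 upstream promoter, chr11:60220608-60220727, minus strand: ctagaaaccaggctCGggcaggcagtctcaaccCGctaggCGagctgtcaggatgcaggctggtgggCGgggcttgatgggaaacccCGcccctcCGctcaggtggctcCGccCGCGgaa
Srebf1 downstream promoter, chr11:60210452-60210571, minus strand: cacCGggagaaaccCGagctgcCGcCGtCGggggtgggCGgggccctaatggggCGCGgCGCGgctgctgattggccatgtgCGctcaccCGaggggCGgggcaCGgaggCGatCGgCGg
Mitf upstream promoter, chr6:97806958-97807077, plus strand: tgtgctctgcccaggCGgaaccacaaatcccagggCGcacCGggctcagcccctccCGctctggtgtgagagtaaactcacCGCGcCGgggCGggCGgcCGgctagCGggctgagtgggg
Mitf downstream promoter, chr6:97991683-97991802, plus strand: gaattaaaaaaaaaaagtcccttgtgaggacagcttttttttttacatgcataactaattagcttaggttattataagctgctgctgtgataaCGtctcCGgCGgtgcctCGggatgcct
Nfkb2 upstream promoter, chr19:46304637-46304756, plus strand: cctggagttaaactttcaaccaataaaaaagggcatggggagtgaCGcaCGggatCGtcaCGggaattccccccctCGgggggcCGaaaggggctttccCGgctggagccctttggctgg
Nfkb2 downstream promoter, chr19:46305595-46305714, plus strand: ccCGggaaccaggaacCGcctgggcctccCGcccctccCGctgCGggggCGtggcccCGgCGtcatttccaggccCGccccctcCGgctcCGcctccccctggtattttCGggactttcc
Cald1 upstream promoter, chr6:34598404-34598523, plus strand: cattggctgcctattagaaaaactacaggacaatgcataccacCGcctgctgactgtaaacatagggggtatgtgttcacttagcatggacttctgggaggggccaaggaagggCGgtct
Cald1 downstream promoter, chr6:34709344-34709463, plus strand: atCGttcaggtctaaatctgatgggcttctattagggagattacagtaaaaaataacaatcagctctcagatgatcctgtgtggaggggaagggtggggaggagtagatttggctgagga
Ak1 upstream promoter, chr2:32625337-32625456, plus strand: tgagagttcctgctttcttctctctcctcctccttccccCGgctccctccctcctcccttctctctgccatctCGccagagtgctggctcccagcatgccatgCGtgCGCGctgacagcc
Ak1 downstream promoter, chr2:32628290-32628409, plus strand: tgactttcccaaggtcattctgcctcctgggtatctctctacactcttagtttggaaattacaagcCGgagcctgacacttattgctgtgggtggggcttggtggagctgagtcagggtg
In Mitf the upstream sequence held 11 CG dinucleotides in its 120 bases and the downstream sequence 4, and over the full 300 bases of the RefSeq entry (250 before the start and 50 after) GC content was 62.7% upstream and 40% downstream. Srebf1 showed the opposite order, with 14 CG in 300 bases upstream and 36 downstream. Cald1 was poor in CG at both promoters, with 6 upstream and 5 downstream. A RefSeq promoter within 50 bp was found for 580 member clusters, and for both promoters of 102 genes; of those 102 genes the upstream promoter held more CG in 62 and the downstream promoter in 37. The median number of CG per 300 bases was 22 over 364 upstream promoters and 19 over 207 downstream promoters, beside 23 over the strongest clusters of genes at 10 CPM or more and 7 over the 32851 promoters of the table. The letters TATAAA, searched on the transcribed strand 40 to 21 bases before the start, were found in 1.65% of upstream and 0.483% of downstream member promoters, beside 2.39% of the strongest clusters and 1.99% of the table.

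Depth was even: the CPM refer to 18179860, 18823630, 17630119 and 17939565 tags in libraries 1 to 4, where 1 tag was worth 0.0531 to 0.0567 CPM. These totals count a cluster once for each gene it is listed under. Over distinct clusters there were 17026618, 17691558, 16492915 and 16787072 tags. The skin label fitted keratinocyte markers, whose 6 genes summed to 6333 to 9585 CPM with none at 0. The libraries differed in other tissue: 7 hair follicle genes (of 8 on the list) summed to 8587, 8219, 3050 and 3157 CPM in libraries 1 to 4, 8 skeletal muscle genes to 3256, 2384, 3995 and 5979 CPM, 6 fibroblast genes to 3630, 3224, 6120 and 5426 CPM, 3 Schwann cell genes to 40.5, 52.8, 81.2 and 102 CPM, and 7 gland genes to 14.4, 37170, 11.9 and 6456 CPM. In bulk skin, fewer cells of a type and less RNA per cell cannot be told apart.

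Of the 678 genes, 636 had 2 strong clusters and 42 had 3. In each gene the strongest cluster and the strongest other one at least 500 bp away are called the upstream and the downstream promoter, by their order along the gene. These names are labels of clusters, also where the downstream cluster may hold tags of the upstream start. The upstream promoter was the stronger in 434 genes and the downstream promoter in 244. The median share of the gene's CPM was 50.9% for the upstream and 38.5% for the downstream promoter. The distance between them ranged from 500 bp in Ednrb to 1004314 bp in Auts2, with a median of 3496.5 bp; 196 genes lay under 1000 bp, 265 from 1000 to 10000 bp, 165 from 10000 to 100000 bp and 52 above. Summed levels ranged from 10 to 2419 CPM, with a median of 39.5 CPM. Both promoters kept at least 20% in every library in 587 genes.

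Just inside the thresholds stood Wnt10b, Crem and Rpgrip1l, with 10, 10.2 and 10.3 CPM; just outside were Hps4, Gm50336 and C1qtnf1, with 9.94, 9.92 and 9.86 CPM. On the share of the weaker cluster, Fbxw5, Emp3 and Gm10925 stood at 20%, against 19.98% for Zbtb7a and 19.97% for Puf60 and Tmem38a. Ednrb, Slc25a48 and Vgll3 had promoters 500 bp apart, and Pdzd11, Inafm1 and Oxsm had clusters 498, 495 and 495 bp apart. In 59 genes a cluster was also listed under another gene, so that its tags cannot be assigned to either; an example is Gas5, a noncoding RNA gene that hosts small nucleolar RNAs in its introns, whose pair was listed again under Gm26224, Gm22489 and Gm22357.

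The members fell into a pair of unlike classes by where the downstream cluster began. In 252 genes (37.2%) it began at a splice acceptor, that is within 8 bases before to 3 bases after the first base of an exon (GENCODE M21, GRCm38). An annotated transcript joined that exon to an earlier exon that held or followed the upstream cluster. A pair listed under several genes took the class if any of those genes met this. The window was chosen after the values were seen. The acceptor was that of the second exon in 236 of the 252 genes, and the most frequent position was 2 bases before the exon's first base on both strands. The upstream cluster ended within 100 bp of the earlier exon's last base in 232 genes, with a median distance of 10 bp. The downstream clusters of these genes were narrow, with a median width of 6 bp and 216 of 252 at 20 bp or less. In the other 426 genes, called separate starts here, the median width was 123 bp and 11 were at 20 bp or less. Upstream clusters had medians of 96.5 bp and 122 bp in these classes. The acceptor class was not confined to genes with strong pairs: 24.0% of the 1490 other genes with a pair of clusters at 1 CPM or more had it too. Of the clusters at 1 CPM or more in genes at 10 CPM or more, 5.74% began at an acceptor, as did 0.865% of the strongest clusters of those genes. A cluster at an acceptor can hold RNAs that start there, or tags of RNAs that start in an exon before. Which of these the clusters held was not tested.

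**Figure D1:**
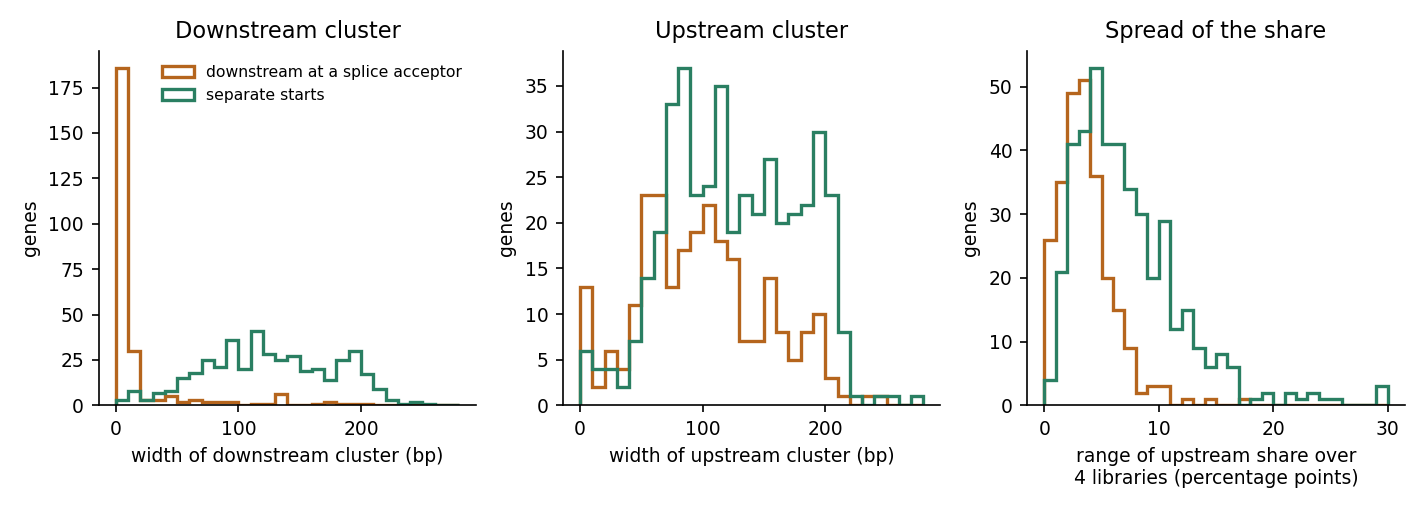
Width of the downstream cluster (left, bp), width of the upstream cluster (middle, bp) and range of the upstream share over 4 libraries (right, percentage points), as numbers of genes, for 252 genes whose downstream cluster begins at a splice acceptor and 426 genes with separate starts. Downstream clusters at an acceptor crowd at the narrow end (median 6 bp, against 123 bp), and their shares spread less (median range 3.38 points, against 6.25 points).

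Many of the most abundant members belonged to the acceptor class, among them genes of the cornified layer and the hair follicle. Apoe, the lipid carrier apolipoprotein E, was the most abundant member. Its upstream cluster held 50.3, 50.5, 50.2 and 50.2% of its CPM in libraries 1 to 4, and the downstream cluster, 6 bp wide, held 46.9, 47.0, 46.9 and 46.8%. S100a6, a calcium-binding protein of proliferating and stratified epithelia, held 53.5% ± 0.0373 upstream and 45.1% ± 0.232 downstream (SD, n = 4, as in all values that follow). In both genes the split was all but the same in every library. Ivl, the cornified envelope precursor involucrin, held 53.9% ± 0.217 upstream while its level differed between libraries, at 142, 145, 111 and 81.0 CPM for the upstream cluster. Prr9, a proline-rich gene of the epidermal differentiation complex, showed the same. Its upstream cluster had 592, 579, 265 and 375 CPM, with shares of 50, 49.9, 49.8 and 49.9%. Its level differed between libraries, and its upstream share ranged over 0.235 points. Hopx, an atypical homeodomain protein of stem and differentiating cells, held 51.0% ± 0.387 and 43.4% ± 0.338 at clusters 19841 bp apart.

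Over the 252 genes of the acceptor class the median range of the upstream share was 3.38 points, and over the 426 genes with separate starts it was 6.25 points. A chi-square test of the recovered tags of both promoters over the 4 libraries, adjusted by Benjamini-Hochberg over 2122 distinct pairs of all genes, asked whether a split varied beyond counting error; it was added after the data were seen, and it says that libraries differ, not that conditions do. It called 162 of 663 member pairs (24.4%), beside 22.6% of all pairs. Among members, 11 of 244 acceptor pairs (4.51%) were called and 151 of 419 separate pairs (36.0%); over the pairs of all genes the difference was smaller, with 47 of 595 acceptor pairs (7.9%) and 433 of 1527 separate pairs (28.4%). Among members alone, the median chi-square per degree of freedom was 0.596 for acceptor pairs and 2.41 for separate pairs. The weaker promoter held a median of 1034 tags in acceptor pairs of members and 831 in separate pairs of members, and the part of depth in the difference was not tested. The chi-square test takes the tags of both clusters as independent counts. Whether this holds for acceptor pairs was not tested, so their low share of calls is not read as steady promoter use.

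Among the 426 genes with separate starts, both promoters lay within 100 bp of annotated starts of the gene in 323. Over all 1398 member entries 81.9% lay at an annotated start. This stood beside 93.5% of the strongest clusters of genes at 10 CPM or more and 80.3% of the clusters at 1 CPM or more in those genes. The annotated transcripts of the separate starts used different start codons in 119 genes, the same start codon in 96, and both shared and other start codons in 33. In 69 genes a promoter had no transcript with a complete coding start, in 89 a promoter lay at no annotated start, and 20 genes were not protein-coding. For 96 of the 119 genes a complete coding sequence was annotated from each promoter. The upstream promoter led to the longer protein in 70 and the downstream promoter in 25, and the median difference was 54 residues; it reached 100 residues in 35 genes and stayed at 20 or less in 27.

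**Figure D2:**
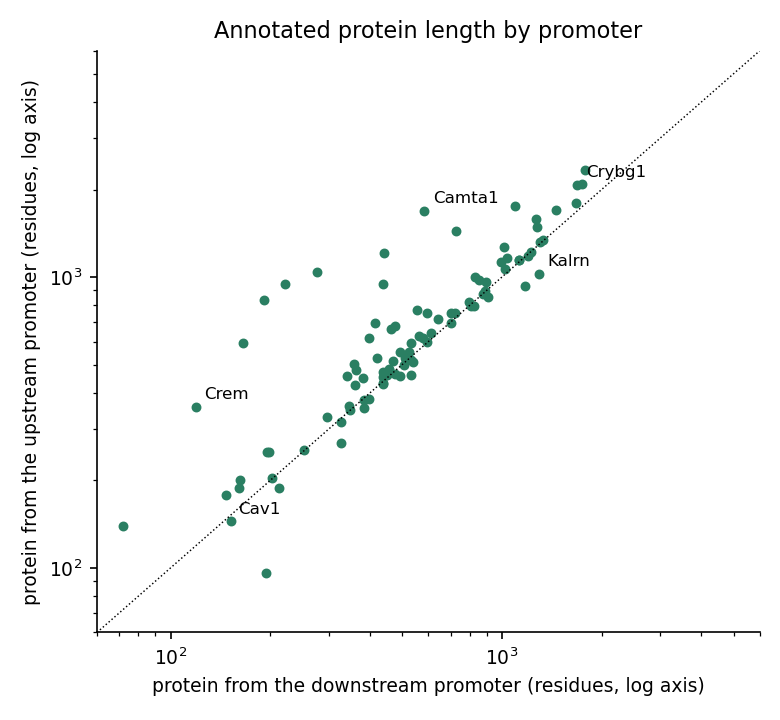
Length in residues (both axes logarithmic) of the longest annotated protein from the upstream promoter (vertical) and the downstream promoter (horizontal) for 96 genes with separate starts and different start codons; the dotted line marks equal length. Of the 96 points, 70 lie above the line and 25 below it, with the largest difference in residues at Camta1 (1682 and 584).

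Genes known from textbooks for alternative promoters were found more often among members than genes at large: of 133 list genes at 10 CPM or more, 22 were members (16.5%), beside 6.30% of all genes at that level, with no test made. Of these 22 genes 1, Zeb2, belonged to the acceptor class. The muscle genes showed known pairs of isoforms. Myl1 encodes the essential light chains of fast skeletal myosin, a longer one of 188 residues from the upstream promoter and a shorter one of up to 161 residues from the downstream promoter. The upstream promoter had 126, 96.4, 132 and 228 CPM in libraries 1 to 4 and the downstream promoter 170, 134, 188 and 325 CPM. Both followed the order of the skeletal muscle sums, and the upstream share stayed at 41.3% ± 0.653. Mylk encodes smooth muscle myosin light chain kinase, and its downstream promoter, 249625 bp away, leads to a short protein of 159 residues at the end of the gene that encodes telokin, the C-terminal part of the kinase. That promoter held 36.6, 45.3, 52.5 and 51.5% of the CPM of Mylk, so that in libraries 3 and 4 it was the stronger. The depth behind these shares was low, and the upstream share of 53.8% in library 1 rests on 238 tags of the gene, with an exact 95% interval (Clopper-Pearson) of 47.2 to 60.2%. Fhl1, a LIM-domain protein of muscle, held 57.5, 46.3, 53.5 and 53.8% upstream. Cald1 held 64.5% ± 1.05 upstream and 33.7% ± 0.855 downstream, with annotated proteins of 768 and 554 residues.

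Transcription factors formed the next group. Mitf held 43.8, 49.0, 47.9 and 56.8% at an upstream promoter whose longest annotated protein has 526 residues, and 53.0, 48.4, 49.4 and 39.5% at the downstream promoter, whose protein of 419 residues is the length of the melanocyte form. The libraries overlapped around an even split, and with 317 tags in library 1 the interval of the upstream share there was 38.3 to 49.5%. Tag levels were 7.65, 8.13, 9.13 and 9.53 CPM upstream and 9.24, 8.02, 9.42 and 6.63 CPM downstream, while 4 melanocyte genes summed to 262, 249, 187 and 198 CPM. The downstream Mitf cluster was 9 bp wide and the upstream cluster 111 bp. Srebf1 held 55.3% ± 1.19 at the upstream promoter, known for the a form of the protein, and 40.7% ± 1.01 at the downstream promoter, known for the c form. Nfkb2 held 69.1% ± 2.25 and 29.9% ± 2.43 at promoters 881 bp apart, which share a start codon. The glucocorticoid receptor gene Nr3c1 and the retinoic acid receptor gene Rara also kept 1 start codon, with upstream shares of 28.3 to 34.1% and of 30.6 to 36.1%. Foxp1, a forkhead factor, held 25.1, 26.3, 35.8 and 33.3% upstream, lower in libraries 1 and 2 than in 3 and 4. Tcf4 held 32.3 to 39.7% and Nfic 22.9 to 29.3% upstream, and Zeb2 19.2 to 24.3%.

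Genes of adhesion, cytoskeleton and signalling completed the list. Lama3 encodes the α3 chain of laminin 332, which anchors keratinocytes to the basement membrane, and its downstream promoter leads to the short form of 1724 residues. That promoter held 62.1, 60.4, 70.6 and 63.9% of the gene's CPM, and was the stronger in every library. Sptbn1, Epb41l1, Ank3 and Tns3 encode proteins that link the membrane to actin or spectrin, and held upstream shares of 31.9 to 38.9%, 50.1 to 60.5%, 18.7 to 26.0% and 27.6 to 32.2%. Tiam1, a Rac exchange factor, held 20.7 to 24.5% at the upstream of promoters 182824 bp apart. Ptch1, the Hedgehog receptor, had 3 strong clusters, with mean shares of 22.2, 49.4 and 22.3% in transcript order. Slc11a2, an iron transporter, held 19.6 to 21.5% upstream. Nrg1, an ErbB ligand, held 68.7, 71.6, 91.7 and 77.6% upstream, and its downstream promoter stood at 1.25 CPM in library 3. Of the 22 genes, 9 had a split that varied beyond counting error. This stood beside 36.0% of separate member pairs, 28.4% of all separate pairs and 22.6% of all pairs, with no test of the difference.

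Among the other gene lists, the share that were members ranged around the 6.30% of all genes. It was 27.8% for melanocytes and nerve (5 of 18), 23.1% for vessels, smooth muscle and fat (6 of 26), 14.4% for kinases, GTPase regulators and actin (26 of 181) and 11.8% for transcription regulators (20 of 169). It was 8.33% for gland secretion (2 of 24), 7.95% for metabolism and transport (12 of 151), 7.69% for RNA processing and translation (7 of 91) and 7.46% for skeletal muscle (5 of 67). The lists with smaller shares were keratinocyte adhesion and cytolinkers with 5.36% (3 of 56), epidermal differentiation with 3.85% (3 of 78), fibroblast and matrix with 2.86% (2 of 70), immune cells and cytokine signalling with 2.53% (2 of 79) and hair follicle with 1.96% (1 of 51). The epidermal and hair members were mostly of the acceptor class (Ivl, Sprr2h and Prr9), and Serpinb12, a serpin of the upper epidermis, was the epidermal member with separate starts, at 28.3, 28.7, 32.2 and 33.0% upstream. The 3 keratinocyte adhesion members were Lama3, Tjp3 (a tight junction scaffold) and Pkp3, whose desmosomal plakophilin 3 has annotated forms of 822 and 797 residues. Pkp3 held 30.3, 29.2, 32.3 and 33.1% upstream, lower in libraries 1 and 2.

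Some genes of muscle and fat metabolism had splits within counting error. Eno3, the muscle enolase of glycolysis, had 86.3, 66.8, 120 and 156 CPM upstream and 26.5, 17.4, 36.7 and 45.4 CPM downstream, both in the order of the muscle sums, and its split stayed between 75.1 and 77.7% upstream. Cd36, a fatty acid receptor of fat cells and vessels, had 21.5, 22.7, 38.4 and 32.1 CPM upstream and 12.8, 12.8, 19.2 and 18.1 CPM downstream. Plin1, the coat protein of lipid droplets, held 75.8, 75.5, 77.9 and 78.8% upstream. In these genes both promoters share a start codon, and none of the 3 varied beyond counting error. Of the 12 metabolism and transport members, 1 of them of the acceptor class, 8 varied beyond counting error. This stood beside 36.0% of separate member pairs and 22.6% of all pairs, with no test of the difference.

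Of the 5 members on the list of melanocytes and nerve, none of them of the acceptor class, 4 varied beyond counting error. This stood beside 36.0% of separate member pairs and 22.6% of all pairs, with no test of the difference. Ednrb, the endothelin receptor of melanocytes, had 14, 13.1, 6.41 and 9.48 CPM upstream and 44.7, 35.1, 26.1 and 38.2 CPM downstream, with the downstream promoter ahead in every library. Gas7, a cytoskeletal adaptor of neurons, held 48, 42.1, 42.5 and 41.7% upstream and did not vary beyond counting error. Elf5, an epithelial transcription factor on the gland list, held 67.9, 59.9, 53.2 and 51.4% upstream, and its upstream level was 14.7, 11.5, 5.67 and 4.96 CPM. Its order did not follow the gland sums. Among transcription regulators, Fosl2, an AP-1 subunit, held 64.1, 62.4, 59.4 and 59.7% upstream at 506 bp, and the clock gene Per1, of the acceptor class, 32.4, 33.7, 35.4 and 37.3%. Mef2c, a muscle and vessel factor, held 29.8, 32.1, 34.9 and 38.6%.

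Actin-linked genes gave an exception within the acceptor class. Flna, the actin crosslinker filamin A, had 52.8, 50.5, 73.1 and 76.5 CPM upstream and 181, 167, 187 and 187 CPM at a downstream cluster on an acceptor. Its upstream share of 22.3, 23, 27.6 and 28.5% was lower in libraries 1 and 2. The split varied beyond counting error, as 11 of 244 acceptor pairs among members did. Sh3pxd2a, a podosome scaffold, held 22.1 to 25% upstream at promoters 149506 bp apart with different start codons. Of the RNA processing members, Srsf11, a splicing factor, held 63 to 64% and Snhg3, a host of small nucleolar RNAs, 61.6 to 62.7%, while the median range over the 7 members was 4.23 points, beside 4.69 over all members. Casp1, the inflammasome protease, and Cilp, a matrix protein, were acceptor pairs at 53.6 to 56% and 53.9 to 55.4%.

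The longest distance was found in Auts2, a chromatin regulator with promoters 1004314 bp apart, with 37.4% ± 2.79 upstream and 43.5% ± 4.07 downstream. Camta1, a calmodulin-binding transcription activator, had them 753097 bp apart, with 48.9% ± 2.48 and 44.2% ± 2.27 and annotated proteins of 1682 and 584 residues. Rabgap1l, Ank3, Foxp1, Tenm4, Frmd4b, Hivep3, Tenm3 and Rere followed, at 541247 to 287759 bp. None of these 10 was of the acceptor class. The splits closest to even were those of Dab2ip, Ampd3, Cracr2b, Exosc8, Pum3 and Cav1, of which Exosc8 and Pum3 were of the acceptor class. Cav1 encodes caveolin 1, the coat protein of caveolae, and its promoters, 1209 bp apart, lead to the longer form of 178 residues and the shorter form of 147 residues. They held 26.0, 25.6, 40.8 and 42.1 CPM upstream and 28.4, 26.3, 42.7 and 34.1 CPM downstream. Both were higher in libraries 3 and 4 than in 1 and 2, and the downstream form was ahead in libraries 1 to 3.

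Genes with 3 strong clusters included Tfap2a, which encodes the epidermal transcription factor AP-2α. Its clusters held 30.2% ± 5.06, 21.4% ± 3.01 and 20.4% ± 0.475, and the first 2, as shares of 1 sum can, had opposite orders over the libraries, with 35.1, 32.3, 23.3 and 30.0% at the one and 17.6, 20.8, 24.8 and 22.4% at the other. Rbfox2, a splicing regulator, held 27.8% ± 1.81 and 23.4% ± 1.25 at neighbouring clusters and 41.8% ± 0.779 at a promoter 153046 bp downstream of the upstream cluster. Vgll4, a TEAD cofactor, held 42.8% ± 2.03, 28.6% ± 1.38 and 27.2% ± 2.71. Smarcd2, a chromatin remodelling subunit, held 22.2% ± 0.779, 31% ± 0.504 and 28.1% ± 0.218.

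Whether a split varied between the libraries more than other splits of its level was tested with limma, on log2((upstream CPM + 0.1)/(downstream CPM + 0.1)) per library, over 2122 distinct pairs of clusters at 1 CPM or more each. The test called 1 of 663 member pairs, beside 0.0943% of all pairs. At an unadjusted p under 0.05 it named 47 of 663 member pairs, beside 108 of 2122 pairs in all. With edgeR on the recovered tags none was called. The called gene was Aldoa, the glycolytic aldolase A. Its upstream promoter, on chromosome 7 from 126800039 to 126800051 on the minus strand, had 296, 237, 309 and 407 CPM. Its downstream promoter, from 126799138 to 126799187, had 494, 484, 539 and 446 CPM. The upstream promoter thus held 37.5, 32.8, 36.4 and 47.7% of the pair, and was highest in library 4. The SD of the log2 ratio was 0.385, where 0.0230 was expected from the other pairs of that level (adjusted p = 0.045, limma). The call is fragile: 10 of 13 alternatives lost it (adjusted p from 0.0011 to 0.90 over the 13), among them edgeR with 0.19, leaving out library 2 with 0.31, library 3 with 0.081 and library 4 with 0.35, and leaving out acceptor pairs with 0.73. The order of the upstream levels was that of the skeletal muscle sums of 3256, 2384, 3995 and 5979 CPM, whose part in the result was not tested.

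Aldoa also had another strong cluster, 6 bp wide and at a splice acceptor. It had 254, 202, 269 and 353 CPM, which was 85.8, 85.2, 87.3 and 86.7% of the level of the upstream cluster. The downstream promoter had 167, 204, 175 and 109% of that level, so this cluster moved with the upstream cluster and the downstream promoter did not. It was examined after its values were seen.

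**Figure D3:**
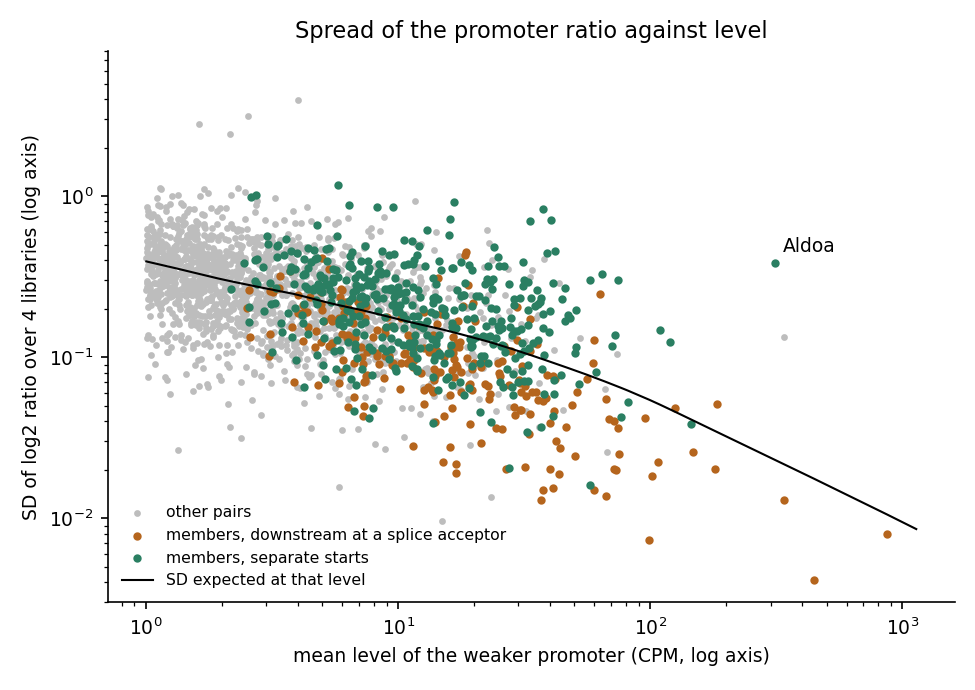
SD over 4 libraries of the log2 ratio of upstream to downstream promoter (vertical, logarithmic) against the mean level of the weaker promoter (horizontal, CPM, logarithmic) for 2122 pairs; the line is the SD expected at that level. Aldoa stands at an SD of 0.385 above the line, and among members acceptor pairs (median SD 0.0923) lie lower than separate starts (median SD 0.200).

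Over all member pairs the median chi-square per degree of freedom was 1.44, beside 1.55 over all pairs. The upstream share ranged over the libraries by a median of 4.69 points; the range was under 10 points in 574 genes and 20 points or more in 10. The upstream promoter was the stronger in every library in 386 genes and the downstream promoter in 198, and in 94 genes the order was not the same in every library. Of separate pairs, 20% varied beyond counting error at distances from 500 to 1000 bp, 36.2% from 1000 to 10000 bp, 46.5% from 10000 to 100000 bp and 40.4% above, while the median level of the weaker promoter was 9.82, 11, 12 and 14.1 CPM in these bins. The part that level had in this order was not tested.

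The widest ranges were found in 12 genes with promoters at 20 CPM or more together, none of which passed limma. In several, 1 promoter held its level while the other changed. Serinc2, a serine incorporator of membranes, had 56.7, 48.8, 20.5 and 24.8 CPM at its upstream promoter and 86.7, 86.9, 108 and 84.0 CPM at its downstream promoter (adjusted p = 0.23, limma). The upstream levels of libraries 1 and 2 lay above those of 3 and 4 without overlap, and the downstream levels overlapped. Clk3, a kinase of splicing factors, had 59.8, 56.8, 23.7 and 21 CPM upstream and 50.4, 50.6, 46.4 and 44.5 CPM downstream (adjusted p = 0.26, limma). Nckap5 had 57.9, 50.8, 18.7 and 18.8 CPM upstream and 16.3, 16.5, 18.7 and 15.3 CPM downstream (adjusted p = 0.39, limma). In these 3 genes the upstream promoter was high in the libraries with the higher hair follicle sums, 8587 and 8219 against 3050 and 3157 CPM. The part of hair follicle RNA was not tested.

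Slc20a2, a phosphate transporter, showed the change at its downstream promoter, which had 47.9, 44.6, 22.3 and 19.1 CPM while the upstream promoter had 53.0, 52.1, 58.5 and 50.3 CPM. Hivep3, a zinc finger factor, had upstream shares of 66.7, 64.0, 36.9 and 46.2%, and Pank1, a kinase of coenzyme A synthesis, of 55.0, 47.3, 33.6 and 38.9%. Tnfaip8 held 62.7, 61.2, 46.2 and 50.1% and the phosphatase gene Ptp4a3 62.5, 65.8, 53.3 and 50.4%. Dnmbp, a Cdc42 exchange factor, held 28.3, 25.5, 44.7 and 32.5%. These 6 genes all separated libraries 1 and 2 from 3 and 4. The upstream share did so in 47.1% of all pairs, and in 70.4% of all pairs that varied beyond counting error. Bglap3, a gene of the osteocalcin family, did not separate them: library 1 held 49.7% upstream, against 20.5, 27.9 and 23.5% in the others.

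Further genes were named for a small unadjusted p. Dusp14, a dual specificity phosphatase, had 44.4, 45.6, 37.8 and 27.9 CPM upstream and 175, 172, 87.5 and 61.7 CPM downstream. Crybg1, whose promoters lie 144253 bp apart and lead to 2065 and 1691 residues, held 38.1, 37.1, 50.1 and 50.6% upstream. Plekha4, whose promoters are under 20 CPM together, held 38.7, 41.3, 68.2 and 63.7% upstream and Kalrn 30.2, 26.1, 13.5 and 20%. In all 4, libraries 1 and 2 lay on one side of libraries 3 and 4, and none passed limma. Such a separation of the upstream share was found in 47.1% of all pairs, and in 70.4% of all pairs that varied beyond counting error.

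Ak1 had 28.4, 20.1, 37.2 and 50.4 CPM at its upstream promoter, in the order of the skeletal muscle sums, and 17.8, 17, 15.6 and 13.5 CPM at its downstream promoter. Its sequences above hold 5 CG upstream and 1 downstream. Mbp encodes myelin basic protein from the downstream promoter and the longer golli forms from the upstream promoter. The myelin promoter had 6.77, 9.30, 13.3 and 19.2 CPM, in the order of the Schwann cell sums of 40.5, 52.8, 81.2 and 102 CPM, and the golli promoter had 24.5, 24.8, 30.4 and 30.4 CPM. The upstream share of Mbp was 77.8, 72.5, 69.4 and 61.2%. Outside the 12, Dcn, the small proteoglycan decorin of fibroblasts, had 114, 105, 204 and 168 CPM upstream and 65.5, 67.5, 80.7 and 83.6 CPM downstream. The upstream levels were in the order of the fibroblast sums, which include Dcn itself. The part of muscle, Schwann cell or fibroblast RNA in these splits was not tested.

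**Figure D4:**
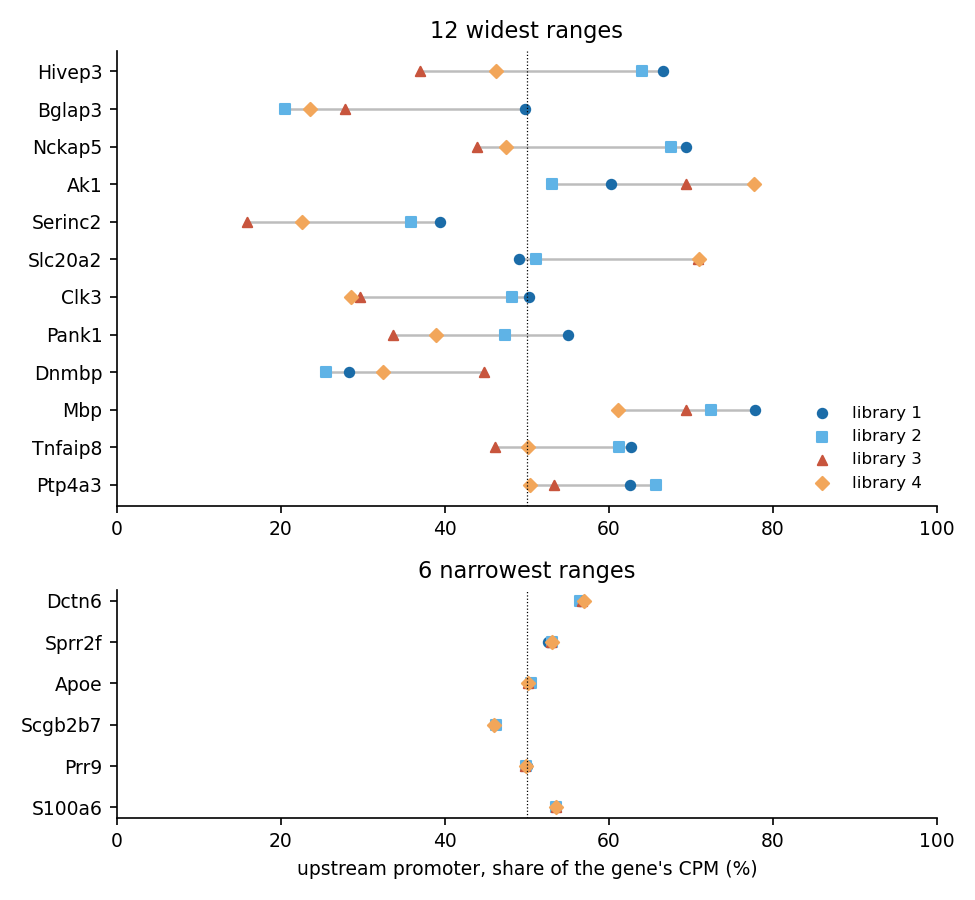
Share of the gene's CPM held by the upstream promoter (horizontal, %) in the 12 members with the widest and the 6 with the narrowest range, 1 symbol per library, grey bars from the lowest to the highest library, dotted line at 50%. Hivep3 spans 29.8 points, while the 6 narrowest, all of the acceptor class, span under 0.6 points, with Scgb2b7 measured in libraries 2 and 4 alone.

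The number in the sample code separated the libraries more often than the letter. The upstream share of libraries 1 and 2 did not overlap that of libraries 3 and 4 in 307 member pairs (46.3%), beside 47.1% of all pairs, so members were at the background. Of the 162 member pairs that varied beyond counting error, 109 showed this separation, beside 338 of the 480 such pairs of all genes (70.4%). Libraries 1 and 3 (letter L) did not overlap libraries 2 and 4 (letter R) in 190 member pairs (28.7%), beside 27.2% of all pairs, and in 28 of the 162, beside 64 of the 480 (13.3%). What the number stands for, and the hair follicle sums that differ with it, cannot be told apart.

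Levels of single clusters were tested in the same way on log2(CPM + 1) over 25530 clusters. At an unadjusted p under 0.05 there were 121 of 1367 member clusters, beside 1703 of 25530 clusters in all. After adjustment 4 of 1367 member clusters were called, beside 0.556% of all clusters. Without library 4 the count among members was 1, and without library 3 it was 7. The 4 were both clusters of Scgb2b20 and of Scgb2b7, androgen-binding protein genes of glands on chromosome 7. These genes reached the mean of 10 CPM through libraries 2 and 4. Their selection and their calls thus rest on the same values, and the calls are a description. The upstream cluster of Scgb2b20 had 0, 74.3, 0 and 45.4 CPM and that of Scgb2b7 0, 26.0, 0 and 16.5 CPM, present in the libraries with gland sums of 37170 and 6456 CPM. Both pairs were of the acceptor class, and near-identical genes of this family can share tags. Scgb2b20 held 59.5% upstream in library 2 and 64.7% in library 4, and Scgb2b7 46.3% and 46.0%.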

How the data were processed

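CAGE tags were counted in 4 libraries of 1 group, and total RNA was made into libraries with a commercial kit, per the labels' protocols. The deposited table holds CPM per cluster, scaled by the authors; BWA, HISAT2 and the mm9 build are named in the submitters' processing notes with no version or role, and no source used here gives the clustering step. Coordinates fitted GENCODE M21 on GRCm38 rather than mm9, and are given on GRCm38, 1 base added to the deposited start, which counts from 0. All CPM (100%) were whole multiples of 1 tag within 0.02 tags, so whole tags were recovered; PCR reads without molecular identifiers are not independent molecules, and intervals cover counting error only.

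Shares are of the gene's summed CPM. The spread test, limma 3.58.1 in R 4.3.3, set each pair's variance over 4 libraries (3 degrees of freedom) against a robust prior trended on the weaker promoter's level (4.06 further degrees of freedom); the F test was one-sided, for excess spread, and its p was adjusted by Benjamini-Hochberg with a threshold of 0.05. Cluster levels used TMM factors of 0.929 to 1.04. For 2 member genes no pair was tested. edgeR 4.0.16 on recovered tags, other pseudocounts, minimums, distances and leaving out each library were alternatives; the scripts were tested on simulated data. Figures used matplotlib 3.10.9, and intervals scipy 1.17.1.

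Genes are named if on the list of known alternative promoter genes, among the 15 smallest p of the spread test, the 12 widest or 6 narrowest ranges at 20 CPM or more, the 10 most abundant, the 10 longest distances, the 6 most even splits, up to 10 with 3 strong clusters, the 4 most abundant of each list, or the 3 on each side of a threshold. Others named were chosen after their values were seen. Members and lists were chosen with earlier results of these data known. Antisense and overlapping genes rest on the strand the authors gave each cluster.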

Additional observations from a re-analysis of the deposited data

Results flagged for a closer look

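In 7 of 102 named genes measured in every library, 1 library stood apart from the other 3 in the upstream share by a gap that, as a share of the whole range, exceeded Dixon's 95% critical value. Over all members this held for 30 of 676 genes (4.44%), and chance flags about 1 in 20 groups of 4. Library 4 was high in Cav1, with 53.5% against 46.5 to 47.6% in the others, and in Epb41l1, with 60.5% against 50.1 to 51.7%. Library 3 was low in Rara, with 30.6% against 35.7 to 36.1%. Library 1 was high in Gas7, with 48.0% against 41.7 to 42.5%, and library 2 in Vgll4, with 45.9% against 41.6 to 42.0%. In the acceptor class, library 3 of S100a6 stood at 53.58% against 53.50 to 53.51%, and library 1 of Cidec at 51.2% against 52.3 to 52.4%.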

How the results depend on the processing

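No paired analysis was possible because all 4 libraries form 1 group and nothing was compared between groups. The number of members held within 1.5 times under each of these changes to the rule: 513 and 855 genes (1009 and 1799 clusters) at shares of 25% and 15%, 491 genes (1010 clusters) at 1000 bp, 790 (1600) at 5 CPM, 619 (1275) without clusters listed under several genes, 562 (1110) with the rule met in every library, and 674 to 689 genes (1356 to 1391 clusters) with 1 library left out. Without the acceptor class, an alternative chosen after seeing the data, 426 genes and 873 clusters were left, and 85.6% of entries lay at annotated starts. A window of 3 bases before to 1 base after the acceptor gave 207 genes in place of 252. The median range of the upstream share was 5.06 points as a share of both promoters alone, 6.25 without the acceptor class and 3.61 to 3.92 with 1 library left out.

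The ratio test called 2 pairs in all and 1 among members. It called 0 in both with pseudocounts of 0.5 or 1 CPM, at 3 CPM or more, at 1000 bp and without acceptor pairs. On the arcsine scale, without the robust option and with edgeR the counts were also 0 in both. At an unadjusted p under 0.05 edgeR named 106 of 2122 pairs, and 47 of 663 member pairs. With 1 library left out, the ratio test called 0 to 2 in all and 0 to 1 among members. With no minimum beyond 0.05 CPM it called 13 and 6, which added Serinc2, Clk3, Slc20a2, Nckap5 and Plekha4 to Aldoa, and by chi-square 480 and 162. The cause of these differences was not tested. Cluster levels gave 142 calls in all and 4 among members, 33 and 1 at 3 CPM or more, 956 and 59 with no minimum beyond 0.05 CPM, and 29 to 195 and 1 to 7 with 1 library left out; leaving out library 4 gave the lowest counts. Of 520 recomputed shares of named genes, 462 moved by less than 1 SD, and the 58 that moved further were shares of both promoters alone.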
